A study of Mus musculus with 24 samples.

Results

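Islets of young male C57BL/6J mice, isolated 14 days after partial pancreatectomy (PPTx, an operation that excises a portion of the gland), were compared with islets from young control mice, to ask which transcripts had not returned to the control level. The comparison held 6 of the 24 libraries of the series, chosen by their titles: 2 day 14 libraries and 4 control libraries. No transgene or mutation is named for any of these mice, and all are labelled as 8 weeks old. The study's methods give 8 weeks as the age at surgery, so the day 14 mice were 14 days past that age at isolation. Controls are described there as mice of the same age, and their age at isolation is not stated. An effect of any such age gap and the day 14 state cannot be told apart. In the PPTx mice 50% of the pancreas, on the splenic side, had been taken out, whereas control mice received no operation at all, so that anaesthesia and laparotomy differ between the groups together with the loss of tissue. The treatment label of every sample names 2 days between surgery and isolation, while the titles give day 14. The titles were followed here. Per the study's methods, RNA came from hand-picked islets of 1 to 2 mice per library after collagenase digestion and a density gradient, and cDNA was made with a kit for very small RNA amounts before single-read sequencing. The other young libraries, 4 at day 2 and 2 at day 7, entered the same fit and served to place the day 14 level in time. The islets of old mice (52 weeks) were 4 control and 2 day 14 libraries.

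An islet is a small endocrine organ in which insulin-secreting beta cells outnumber glucagon-secreting alpha cells, somatostatin-secreting delta cells and pancreatic polypeptide (PP) cells. After loss of part of the pancreas the remaining beta cells of young mice are known to re-enter the cell cycle for a limited time, with raised transcripts of DNA replication genes and of endoplasmic reticulum (ER) chaperones, which fold the secretory load. Islets picked by hand always carry some exocrine acinar tissue, whose digestive enzyme transcripts are very abundant.

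Each library held between 5874340 and 9385697 counts, summed over genes. Before scaling between libraries, 1 count was thus worth 0.107 to 0.170 counts per 1000000 (CPM). The CPM values of young libraries below use library sizes after TMM scaling, which were 5662198 to 6763768 in these 6. Markers of beta, alpha, delta and PP cells were present in all 6 libraries, and insulin transcripts took 9.03 to 9.95% of the reads in genes in the controls and 11.5 to 11.6% at day 14. Acinar markers were present too: the row of the amylase gene Amy2a5 took 3.17 to 7.48% of the reads in genes in the controls against 0.472 and 1.45% at day 14. Of the mapped reads, the portion inside genes was 39.2 to 55.3% in the controls and 38.3 to 40.8% at day 14. Codes in the file names divide the controls into replicates 1 and 2 and replicates 3 and 4, and both day 14 libraries share another code that no other group carries. An effect of this code and the day 14 state cannot be told apart. In RNA from whole islets, fewer cells of a type and less RNA per cell cannot be told apart either.

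At day 14 few transcripts could be separated from the control level. Of 14493 genes tested by edgeR's quasi-likelihood method (Benjamini-Hochberg adjustment, threshold 0.05), 9 differed from control, which is 0.0621%. Of these, 8 were lower at day 14 (Mdm1, Fkbp5, Tmtc3, Rad21, Rab31, Kit, Ahcy and Usp51) and 1 was higher (Cish). Without adjustment, 419 genes were higher (2.89%) and 498 lower (3.44%) at p below 0.05. The 2 day 14 libraries lay above all 4 controls for 1188 genes (8.2%) and below all of them for 1336 genes (9.22%). A random order of 2 against 4 libraries gives 1 or the other of these outcomes with a probability of 0.133, so they are common without any difference. The 95% interval of the log2 fold change lay inside -1 to 1, so that a change of 2-fold either way was outside it, for 10135 genes (69.9%). For the remaining genes the interval reached or passed a 2-fold change, and for some, such as Mdm1 (-2.09 to -1.60), it lay wholly beyond it. Where such an interval also held 0, a return could not be separated from a change of that size. The median log2 fold change over all genes was 0.002. DESeq2 called 48 genes on the same counts, the 9 among them.

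Mdm1, which encodes a microtubule-binding protein of centrioles, lies on the plus strand of chromosome 10 (mm9, 117578843 to 117606053). Its level was 264, 267, 242 and 274 CPM in the 4 controls and 75.6 and 70.0 CPM in the 2 day 14 libraries. Every control was more than 3 times as high as either day 14 library. The log2 fold change was -1.85 (SE 0.115, edgeR adjusted p = 3.0e-06), which leaves 27.8% of the control level. Mdm1 was the gene with the smallest p in this comparison, and it passed the threshold in all 15 alternative fits and with each of the 6 libraries left out.

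Fkbp5, a co-chaperone of the glucocorticoid receptor and a transcript that glucocorticoids induce, lies on the minus strand of chromosome 17 (28536040 to 28654469). It stood at 170, 186, 128 and 127 CPM in the controls and at 58.8 and 54.9 CPM at day 14. The groups were far apart, although the controls of the first file code were higher than those of the second. The log2 fold change was -1.43 (SE 0.168, adjusted p = 0.0033). Tmtc3, which encodes a protein of the ER membrane that attaches mannose to other proteins, lies on the minus strand of chromosome 10 (99906536 to 99949984). Its levels were 227, 226, 275 and 253 CPM in the controls against 126 and 114 CPM at day 14. It fell by 1.03 on the log2 scale (SE 0.122, adjusted p = 0.0033). With either day 14 library left out, neither gene passed the threshold (adjusted p up to 0.22 for Fkbp5 and 0.24 for Tmtc3), whereas each passed with any control left out.

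Rad21, a subunit of the cohesin ring that holds sister chromatids together and shapes chromosome loops, lies on the minus strand of chromosome 15 (51794151 to 51823306). It was at 119, 135, 113 and 125 CPM in the controls and at 70.0 and 76.8 CPM at day 14. The log2 fold change was -0.74 (SE 0.102, adjusted p = 0.014). Rab31, a small GTPase of vesicle transport, lies on the minus strand of chromosome 17 (66001066 to 66122092). The controls were tightly grouped at 57.0, 58.9, 58.5 and 61.3 CPM, and the day 14 libraries were at 36.8 and 31.0 CPM. The fall was -0.80 (SE 0.116, adjusted p = 0.022) on the log2 scale. Rad21 lost its call without either day 14 library, and Rab31 lost it whichever of the 6 libraries was left out (adjusted p from 0.061 to 0.60).

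Kit, the receptor tyrosine kinase for stem cell factor, lies on the plus strand of chromosome 5 (75970941 to 76052747). Its levels were 63.0, 51.3, 48.9 and 38.2 CPM in the controls and 19 and 12.6 CPM at day 14. This is 31.5% of the control level by the fit, or -1.66 on the log2 scale (SE 0.262, adjusted p = 0.043). Ahcy, the enzyme that hydrolyses S-adenosylhomocysteine after methyl transfer, lies on the minus strand of chromosome 2 (154885046 to 154900233). It stood at 64.3, 88.3, 61.2 and 79.5 CPM in the controls and at 37.9 and 40.8 CPM at day 14, which is -0.90 on the log2 scale (SE 0.148, adjusted p = 0.047). Usp51, a ubiquitin-specific protease gene on the plus strand of chromosome X (149441012 to 149443959), was at 40.1, 40.7, 43.6 and 41.1 CPM in the controls and at 19.4 and 19.9 CPM at day 14. Its log2 fold change was -1.07 (SE 0.177, adjusted p = 0.047). These calls were near the threshold: Kit and Ahcy each kept theirs in 1 of the 6 fits that left out a library, and Usp51 in 0, with adjusted p up to 0.66, 0.60 and 0.60.

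Cish encodes a suppressor of cytokine signalling that is itself a classical target of STAT5, the transcription factor downstream of prolactin and growth hormone receptors. It lies on the plus strand of chromosome 9 (107198357 to 107205115), where 2 predicted genes of the annotation, Gm17040 and Gm17041, overlap it. Cish was at 13.8, 5.5, 11.2 and 11.2 CPM in the controls and at 75.7 and 29.9 CPM at day 14. Both day 14 libraries lay above every control. In CPM they differed from each other more than the controls did, whereas as a fold their gap was similar to that between the highest and lowest control. The log2 fold change was 2.35 (SE 0.377, 95% interval 1.54 to 3.16, adjusted p = 0.045). Without day 14 replicate 1, the higher library, the log2 fold change was 1.52 (adjusted p = 0.60), and without replicate 2 it was 2.86 (adjusted p = 0.017). Over all 21 alternative fits the adjusted p ran from 0.0013 to 0.60 and the log2 fold change from 1.52 to 2.86.

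The promoter of Cish is shown because Cish was the gene that rose, and because STAT5-type sites are the best known elements of this gene. The window runs from 250 bases before to 50 bases after the RefSeq start (GRCm38.p6, chr9:107296409-107296708, plus strand). Capitals mark the 2 matches to TTCNNNGAA, searched on both strands. They begin 0 and 11 bases past the start. Of 32851 promoter windows in the RefSeq table, 8.3% held a match, so the letters by themselves are common.

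Cish: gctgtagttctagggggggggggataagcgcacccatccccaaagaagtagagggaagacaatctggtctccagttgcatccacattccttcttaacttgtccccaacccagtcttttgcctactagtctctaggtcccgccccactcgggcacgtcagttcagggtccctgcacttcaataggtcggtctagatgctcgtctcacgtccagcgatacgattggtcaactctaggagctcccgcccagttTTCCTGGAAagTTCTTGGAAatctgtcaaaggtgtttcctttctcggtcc

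**Figure D1:**
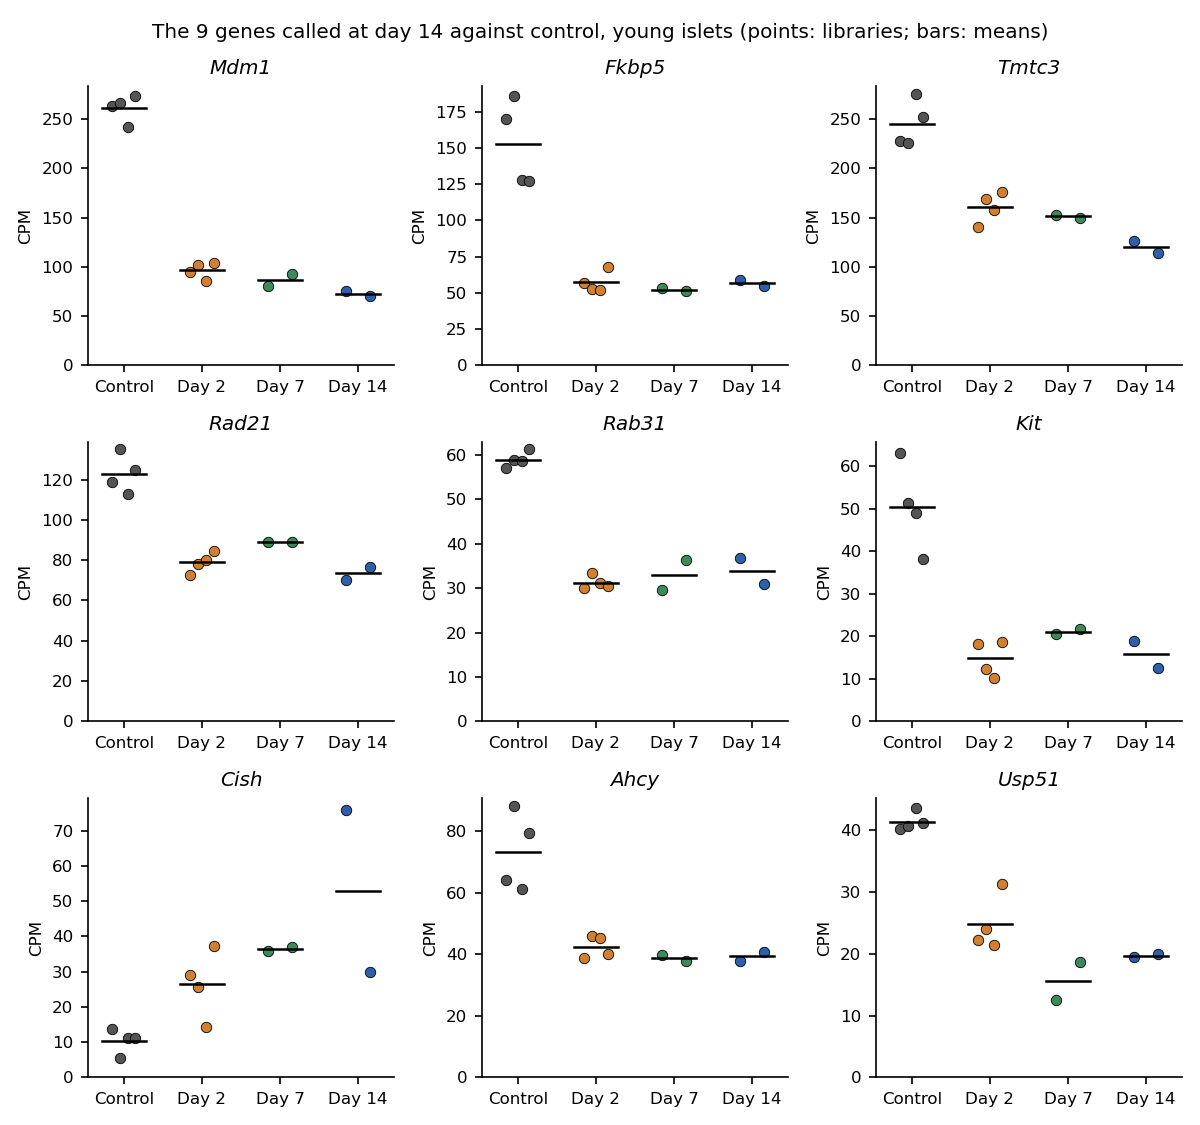
CPM (linear axes from 0) of the 9 genes called at day 14 against control, in 4 control, 4 day 2, 2 day 7 and 2 day 14 young libraries. Each point is a library and each bar a group mean. For Mdm1 the controls lie between 242 and 274 CPM and every PPTx library at or below 105 CPM, and for Cish the order is the opposite.

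The 9 genes were already apart from control on day 2. In the same fit, all 9 were called at day 2, where 7.81% of all genes were, and 6 at day 7, where 0.103% were, each with the sign it had at day 14. These comparisons share the 4 control libraries, so they do not count as separate evidence. Mdm1, for example, was at 86.2 to 105 CPM in the 4 day 2 libraries and at 80.6 and 92.7 CPM at day 7. Kit was at 10.1 to 18.7 CPM at day 2 and 20.4 and 21.7 CPM at day 7. The direct comparison of day 14 with day 2 does not use the controls. None of the 9 genes was called in it, and 3 had an unadjusted p below 0.05. Mdm1 differed by -0.42 between day 14 and day 2 (95% interval -0.65 to -0.18, adjusted p = 0.11), Tmtc3 by -0.42 (interval -0.68 to -0.17, adjusted p = 0.13) and Cish by 1.01 (interval 0.23 to 1.78, adjusted p = 0.23), each on the log2 scale. For Fkbp5 the interval of that difference was -0.36 to 0.34. For Rab31 it was -0.13 to 0.37.

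In old mice 7 of the 9 genes lay below the young control range without any operation. On the CPM scale of all 24 libraries, Mdm1 was at 102, 131, 70.4 and 83.7 CPM in the old controls and at 94.0 and 73.5 CPM in the old day 14 libraries. The young controls on this scale were at 246 to 283 CPM. Kit was at 9.9, 15, 10.7 and 13.6 CPM in the old controls, below both young day 14 libraries or between them. Usp51 was at 17.2 to 27.4 CPM there and Tmtc3 at 124 to 134 CPM. The exceptions were Ahcy, at 38.3 to 65.9 CPM in the old controls, and Cish. Cish was at 5.6 to 18.1 CPM in the old controls and at 7.2 and 20.3 CPM in the old day 14 libraries, overlapping the young controls (5.6 to 14.0 CPM) and below both young day 14 libraries. None of the 9 was called at day 14 in old islets.

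Whether the day 14 change differed between ages was tested as an interaction over all 24 libraries. Of 15794 genes, 1 was called (0.00633%), and this was Mdm1, for which the young change minus the old change was -1.64 on the log2 scale (SE 0.257, edgeR adjusted p = 0.039). The young change behind it is the one described above, and the old change was -0.21 (SE 0.181). Rab31 followed with a difference of -0.80 (SE 0.142, adjusted p = 0.11) and Fkbp5 with -1.11 (SE 0.221, adjusted p = 0.29). The call of Mdm1 was kept in 1 of the 12 fits that left out a library, over which the adjusted p ran from 0.00069 to 0.67. In this difference the old controls enter as well as the young ones.

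**Figure D2:**
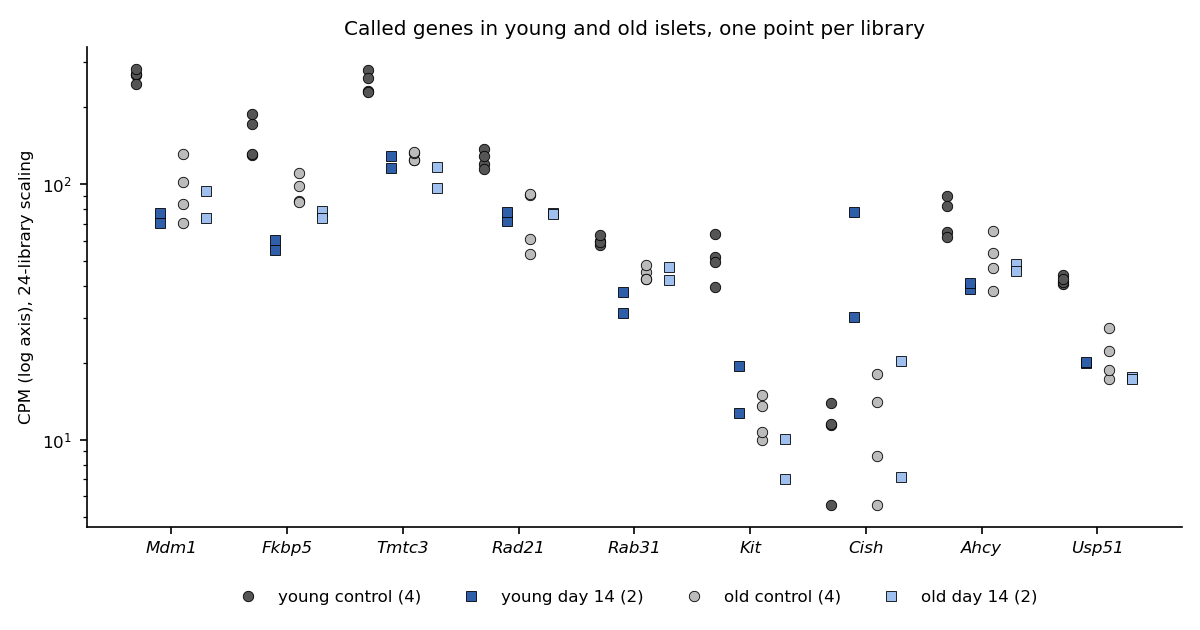
CPM on a log axis, on the scaling of all 24 libraries, of the 9 genes in young control (4), young day 14 (2), old control (4) and old day 14 (2) libraries, 1 point per library. For Mdm1, Tmtc3, Kit and Usp51 the old libraries lie close to the young day 14 libraries, whereas for Cish the young day 14 libraries lie above all others.

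The wider set of genes with the largest differences at day 14 did not pass the adjusted threshold and is given as values. There were 238 genes with an unadjusted p below 0.01, a mean level above 3 on the log2 CPM scale and no overlap between groups. Among those higher at day 14, Cish came first, followed by Vip, the vasoactive intestinal peptide of islet nerves, at 12.9, 9.4, 18.9 and 24.3 CPM in the controls and 93.8 and 30.2 CPM at day 14 (log2 fold change 1.92, SE 0.524, adjusted p = 0.38). Fn1, which encodes fibronectin, was at 4.9, 3.2, 4.7 and 4.2 CPM in the controls and at 10.5 and 10.6 CPM at day 14, with a log2 fold change of 1.30 (SE 0.316). It had also been at 9.4 to 24.7 CPM at day 2. S1pr3, a receptor for sphingosine-1-phosphate, was at 6.7 to 8.8 CPM in the controls and at 14.7 and 14.6 CPM at day 14. The monocarboxylate transporter gene Slc16a9 was at 13.4 to 16.7 CPM against 25.6 and 31.0 CPM, and the ArfGAP gene Asap3 at 4.6 to 6.9 CPM against 10.6 and 13.4 CPM. Cpm, a carboxypeptidase gene that lies near Mdm1 on chromosome 10 (117066556 to 117124408), was at 12.5 to 15.8 CPM in the controls and at 21.2 and 29.2 CPM at day 14. Its adjusted p was 0.060, and it passed the threshold in 5 of 21 alternative fits, DESeq2 among them (range of adjusted p 0.0039 to 1.0).

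All 8 genes with the largest falls in that set were exocrine or of the Reg family. They were Reg2, Amy2b, Reg3b, Reg1, Gp2, Pnlip and a pair of rows that join the Amy2a copies and count the same reads. Pnlip, pancreatic lipase, was at 903, 1237, 800 and 2821 CPM in the controls and at 355 and 152 CPM at day 14. Gp2, a zymogen granule membrane protein, was at 241 to 841 CPM in the controls and at 107 and 38.6 CPM at day 14. The spread within both groups was wide, and the log2 fold changes of -2.50 for Pnlip (SE 0.769) and -2.62 for Gp2 (SE 0.741) had adjusted p-values of 0.43 and 0.40.

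Acinar transcripts as a whole were lower in both day 14 libraries. Of 22 genes on the acinar list, 20 were tested on rows of their own, and 19 of them had an unadjusted p below 0.05 with a lower level at day 14 and no overlap with the controls, whereas 3.44% of all genes were lower at that p. None was called after adjustment. The median log2 fold change was -2.32, beside 0.002 over all genes. Carboxypeptidase A1 (Cpa1) was at 356, 505, 303 and 1065 CPM in the controls and at 161 and 56.2 CPM at day 14. Control replicate 4 had the highest value of Cpa1, Pnlip and Gp2, and without this library the list median was -1.82. It was -3.18 without day 14 replicate 1 and -1.79 without day 14 replicate 2. At day 2 the median against the same controls had been -3.52 and at day 7 -2.60, so the median at day 14 was the nearest to 0 of the 3 days. The summed level of the acinar markers fixed for the cell type check was 5038 to 17210 CPM in the controls, 186 to 1342 CPM at day 2, 628 to 2226 CPM at day 7 and 971 to 2614 CPM at day 14. The part of acinar RNA in the other differences was not tested in general. With the acinar list as a covariate, Mdm1, Fkbp5, Tmtc3, Kit and Usp51 remained called at day 14 and Rad21, Rab31, Cish and Ahcy did not. The log2 fold changes of these 4 in that fit were -0.77, -0.77, 2.13 and -0.72, with adjusted p of 0.19, 0.34, 0.54 and 0.59.

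The Reg genes encode small secreted lectins that are known for their induction in injured pancreas. Of 7 members, 6 were tested. Reg3a had 0, 2, 2 and 4 counts in the controls, 9, 21, 130 and 14 counts at day 2, 2 and 1 at day 7, and 0 in both day 14 libraries. Reg3g had 0 to 6 counts in the controls, 15 to 204 at day 2, 10 and 5 at day 7, and 1 and 0 at day 14. Both were therefore at the edge of detection in controls and at day 14, and no fold is given. Reg3b was the 1 Reg gene called between day 14 and day 2: it was at 13.9 to 97.5 CPM at day 2, at 1.0 and 0.5 CPM at day 14 and at 3.0 to 10 CPM in the controls. Its log2 fold change was -5.64 against day 2 (SE 1.02, adjusted p = 0.047) and -3.33 against control (SE 1.11, adjusted p = 0.50). Reg2 was at 4.4, 7.7, 7.7 and 58.0 CPM in the controls and at 1.3 and 0.7 CPM at day 14. Reg1, which acinar cells express, was at 187 to 719 CPM in the controls and at 110 and 25.2 CPM at day 14. The list median was -3.22 against control, and -0.98 with the acinar list as a covariate.

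**Figure D3:**
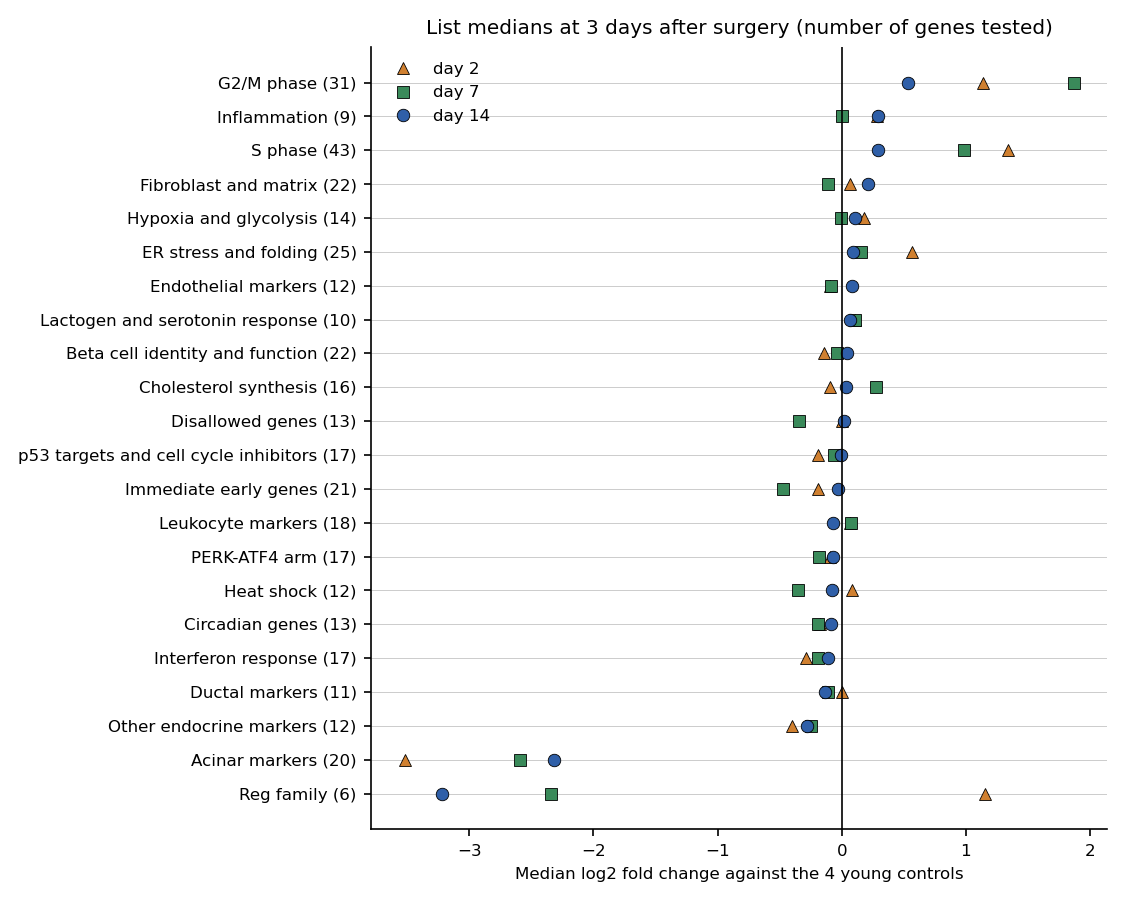
Median log2 fold change of each of 22 gene lists against the 4 young controls at day 2 (triangles), day 7 (squares) and day 14 (circles), with the number of genes tested in brackets. The S phase and G2/M medians at day 14 (0.29 and 0.54) lie below those of day 2 and day 7, and the acinar median stays below -2 at all 3 days. The 3 days share the controls.

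The cell cycle lists lay nearer to control at day 14 than at the earlier days, with medians still above 0. Of 43 tested S phase genes, which serve DNA replication, the median log2 fold change against control was 1.34 at day 2, 0.98 at day 7 and 0.29 at day 14. None was called at day 14, whereas 32 were called higher at day 2, beside 4.38% of all genes. At an unadjusted p below 0.05, 6 were higher (Mcm2, Mcm3, Mcm5, Rfc5, Chaf1b and Hells) and 0 lower, beside 2.89% of all genes higher. In 13 of the 43 both day 14 libraries lay above all controls, beside 8.2% of all genes. The 95% interval of the day 14 change lay inside -1 to 1 for 13 of the 43, beside 69.9% of all genes. For most of the list it therefore reached or passed a 2-fold change. Mcm2, a subunit of the replicative helicase, was at 12.7, 11.4, 17.0 and 19.9 CPM in the controls and at 24.7 and 27.7 CPM at day 14 (log2 fold change 0.77, SE 0.289, adjusted p = 0.61). At day 2 it had been at 38.0 to 84.4 CPM and at day 7 at 35.6 and 39.9 CPM. Mcm5 was at 4.1 to 8.0 CPM in the controls and at 14.5 and 8.3 CPM at day 14. Pcna, the sliding clamp of DNA polymerase, was at 19.1, 23.5, 29.1 and 23.4 CPM in the controls and at 28.6 and 19.1 CPM at day 14, with an interval of -0.43 to 0.44. The mean log2 level of the list per library was 2.56 to 3.06 in the controls and 2.94 and 3.24 at day 14, so the groups overlapped.

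Of 31 tested G2/M genes, which serve mitosis, none was called and 1, the spindle midzone gene Prc1, had an unadjusted p below 0.05. The median was 1.14 at day 2, 1.87 at day 7 and 0.54 at day 14, and 9 genes lay above all controls in both day 14 libraries, as did 8.2% of all genes. The 95% interval of the day 14 change lay inside -1 to 1 for 1 of the 31, beside 69.9% of all genes, so a 2-fold change was seldom bounded. Mki67, the proliferation marker, was at 9.4, 9.0, 23.5 and 16.5 CPM in the controls and at 26.8 and 29.7 CPM at day 14, after 51.0 and 64.0 CPM at day 7. The log2 fold change was 0.94 with an interval of -0.07 to 1.96 (adjusted p = 0.80). Top2a, Ccnb1 and Cdk1 were at 20.3 and 20.1, 10.3 and 8.6, and 6.6 and 5.6 CPM at day 14, against control ranges of 7.9 to 23.1, 3.9 to 7.8 and 2.3 to 6.7 CPM. For these 4 genes control replicates 3 and 4 were higher than replicates 1 and 2. Against the first pair the medians were 0.52 for S phase and 1.04 for G2/M, and against the second pair 0.15 and 0.30. The cell cycle inhibitor Cdkn1a was at 10.5 to 20.8 CPM in the controls and at 12.4 and 11.1 CPM at day 14.

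Genes of the ER list were not called at day 14. Of 25 tested genes of ER stress and folding, 15 had been called higher at day 2 (4.38% of all genes), and none was called at day 14. The median was 0.56 at day 2, 0.16 at day 7 and 0.09 at day 14, and for 22 genes the day 14 interval lay inside -1 to 1. At an unadjusted p below 0.05, 1 member was higher and 1 lower at day 14, beside 2.89% and 3.44% of all genes. Hspa5, the main chaperone of the ER lumen, was at 1639, 1746, 2125 and 1955 CPM in the controls and at 1858 and 2284 CPM at day 14, within and just above the control range, after 3499 to 4195 CPM at day 2. Its log2 fold change was 0.15 (95% interval -0.18 to 0.48). Sdf2l1 was at 105, 110, 140 and 219 CPM in the controls and at 203 and 182 CPM at day 14, and Manf at 83.0 to 150 CPM against 108 and 144 CPM. Herpud1, a component of ER-associated degradation, was at 308, 358, 341 and 384 CPM in the controls and at 215 and 205 CPM at day 14 (log2 fold change -0.73, SE 0.154, unadjusted p = 0.00034, adjusted p = 0.20). At day 2 it was at 267 to 408 CPM. Of 17 genes of the PERK-ATF4 arm, the branch of the stress response that controls amino acid genes, none had an unadjusted p below 0.05. Trib3 was at 2.2 to 8.6 CPM in the controls and at 4.6 and 1.8 CPM at day 14, and Ddit3 has no row of its own.

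**Figure D4:**
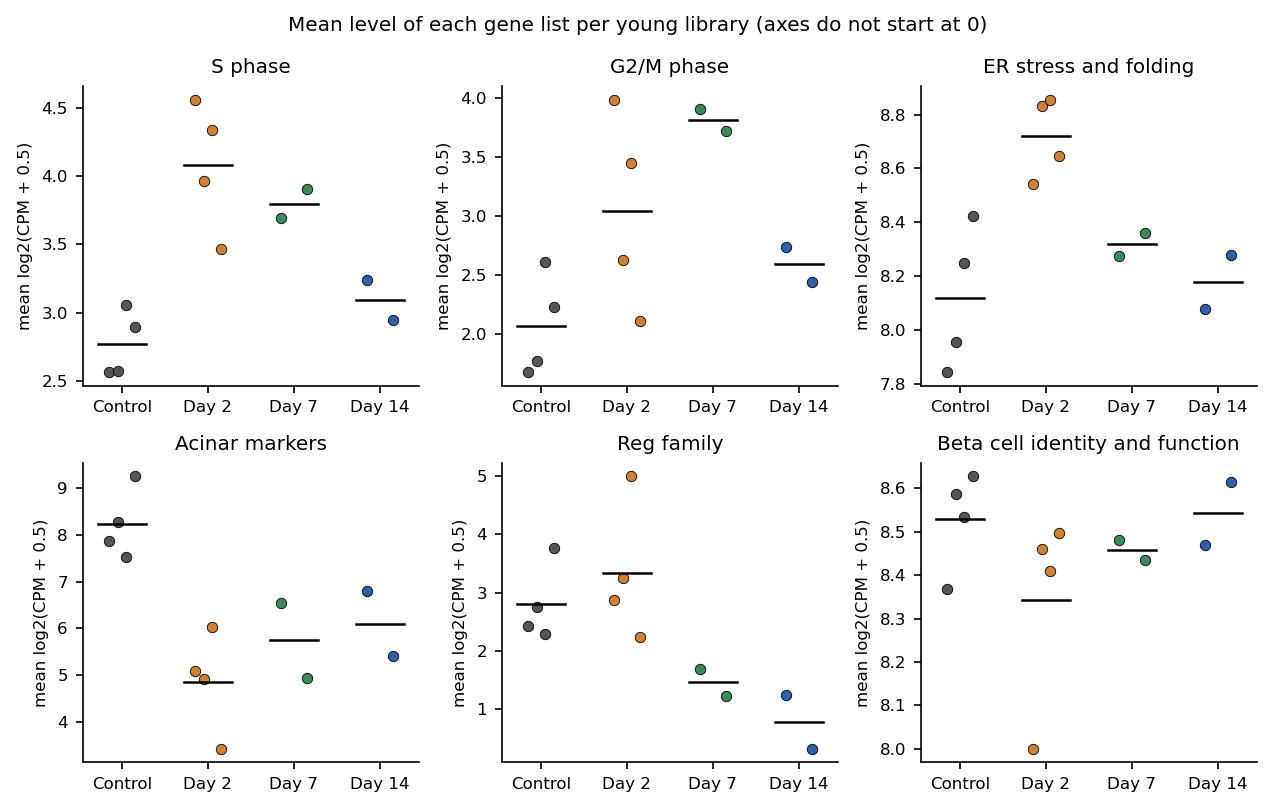
Mean log2(CPM + 0.5) of the tested members of 6 lists in each young library, with bars at group means and axes that do not start at 0. The day 14 libraries lie within or just above the control range for S phase (2.94 and 3.24) and G2/M (2.45 and 2.74), inside it for ER stress, and below it for acinar markers and the Reg family.

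Beta cell genes were mostly measured well enough to bound the change. Of 22 tested genes, none was called, and for 19 the 95% interval lay inside -1 to 1, beside 69.9% of all genes. Ins1 had a log2 fold change of 0.05 (interval -0.39 to 0.49), Ins2 of 0.03 (interval -0.41 to 0.46), and Iapp, which is secreted with insulin, of -0.06 (interval -0.52 to 0.41). The glucose transporter gene Slc2a2 was at 568, 613, 658 and 615 CPM in the controls and at 577 and 741 CPM at day 14, and had been at 312 to 480 CPM at day 2. Ucn3, a marker of mature beta cells, was at 329 to 462 CPM in the controls and at 394 and 440 CPM at day 14. In both day 14 libraries 3 genes of the list lay below all controls, beside 9.22% of all genes. At an unadjusted p below 0.05, 1 gene of the list was higher and 2 were lower, beside 2.89% and 3.44% of all genes. The higher one was Mafa, a transcription factor of mature beta cells, at 39.2, 58.6, 39.0 and 44.0 CPM in the controls and at 72.6 and 90.7 CPM at day 14. Its log2 fold change was 0.85 (SE 0.185, interval 0.45 to 1.25, unadjusted p = 0.00041, edgeR adjusted p = 0.23), and over the alternative fits the adjusted p ran from 0.0079 (DESeq2) to 1.0. G6pc2, the islet glucose-6-phosphatase, was at 2722 to 5679 CPM in the controls and at 2510 and 2551 CPM at day 14 (log2 fold change -0.71, SE 0.281, unadjusted p = 0.025).

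Among the other endocrine markers, 12 were tested and none was called. At an unadjusted p below 0.05, 4 were lower and 1 was higher, beside 3.44% and 2.89% of all genes, and 3 lay below all controls in both day 14 libraries (9.22% of all genes). The list median was -0.28. Hhex, a delta cell transcription factor, was at 7.2 to 10.1 CPM in the controls and at 4.5 and 5.0 CPM at day 14 (log2 fold change -0.79, unadjusted p = 0.0039). Gcg, which encodes glucagon, was at 24894, 31334, 17490 and 20099 CPM in the controls and at 12714 and 22733 CPM at day 14 (log2 fold change -0.40, interval -1.15 to 0.34), after 5391 to 12739 CPM at day 2. Irx2, an alpha cell gene, was at 11.5 to 16.6 CPM in the controls and at 9.1 and 9.0 CPM at day 14. Of the PP cell genes, Ppy was at 4799, 1136, 4828 and 1670 CPM in the controls and at 8205 and 3990 CPM at day 14, so the groups overlapped, and Pyy at 607 to 1362 CPM against 2146 and 1382 CPM. The Ppy levels of the controls spanned more than 4-fold. Sst, which encodes somatostatin, was at 649 to 814 CPM in the controls and at 639 and 677 CPM at day 14 (interval -0.43 to 0.11).

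The lactogen and serotonin list, which holds targets of prolactin signalling in islets, had 10 of 13 genes tested, and Cish was the 1 called. With Cish included, 2 members were higher and 0 lower at an unadjusted p below 0.05, beside 2.89% and 3.44% of all genes. Both day 14 libraries lay above all controls for 2 members, beside 8.2% of all genes. The mean log2 level of the list, Cish included, was 4.28 to 4.64 in the controls and 4.90 and 4.71 at day 14. Cish was called for this same difference and is among the averaged members, so this mean does not show a rise of the other members. Socs2, another STAT5 target, was at 22.6, 19.7, 13.9 and 22.1 CPM in the controls and at 34.7 and 18.7 CPM at day 14, overlapping them, with the higher value in the library in which Cish was also higher. The prolactin receptor gene Prlr was at 400 to 554 CPM in the controls and at 463 and 481 CPM at day 14. The list median was 0.07.

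For the circadian list, 13 genes were tested and 5 had an unadjusted p below 0.05, with none called. Of these 5, 2 were higher and 3 lower at day 14, beside 2.89% and 3.44% of all genes. Arntl, the activator of the clock loop, was at 21.0, 19.3, 4.9 and 8.5 CPM in the controls and at 33.8 and 27.9 CPM at day 14. Its partner Npas2 was at 10.1, 5.8, 2.1 and 2.3 CPM against 14.5 and 11.9 CPM. The repressor gene Nr1d2 was at 146, 157, 259 and 230 CPM in the controls and at 101 and 132 CPM at day 14. In each of these genes the controls of the 2 file codes differed as well, and an effect of the code cannot be told apart from the day 14 state. Arntl was called against the second pair of controls (log2 fold change 2.21, adjusted p = 0.018) and not against all 4 (1.21, adjusted p = 0.45, range over the alternative fits 0.018 to 1.0).

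The lists for other cell types gave no call at day 14. Endothelial markers, of which 12 were tested, had a median of 0.08, and the summed level of the fixed markers was 395 to 425 CPM in the controls and 407 to 438 CPM at day 14, so the groups overlapped. Leukocyte markers (18 tested) had a median of -0.07 and a summed level of 65.5 to 84.4 CPM against 67.0 to 85.3 CPM, also overlapping. Fibroblast and matrix genes (22 tested) had a median of 0.21, and -0.09 without day 14 replicate 1. The sign was positive for 20 of them, and 2 were higher at an unadjusted p below 0.05, beside 2.89% of all genes. Col3a1 was at 71.6 to 165 CPM in the controls and at 196 and 92.4 CPM at day 14. Ductal markers (11 tested) had a median of -0.14. Of the inflammation list, 9 of 25 genes passed the filter, and Socs3 was at 4.1 to 8.9 CPM in the controls and at 8.2 and 7.6 CPM at day 14. The medians of the remaining lists (interferon response, immediate early genes, p53 targets and cell cycle inhibitors, genes disallowed in beta cells, hypoxia and glycolysis, cholesterol synthesis) lay between -0.11 and 0.11.

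The direct comparison of day 14 with day 2 gives the genes whose level moved between these days. Of the 14493 genes, 43 were called (0.297%), 32 lower and 11 higher at day 14. The genes were chosen by their difference from day 2, which by itself favours a day 2 level away from control, so their levels against control are a description. The 32 lower genes were all above control at day 2 and the 11 higher genes all below it, by the sign of the fitted change, and the median log2 fold change against control of the 32 lower genes went from 0.83 at day 2 to -0.02 at day 14. That of the 11 higher genes went from -0.64 to 0.07. For 40 of the 43 the interval of the day 14 change against control lay inside -1 to 1, the exceptions being Reg3b, Cdc6 and Vsnl1. The day 14 libraries overlapped the controls for 28 of the 43, and 7 differed from control at an unadjusted p below 0.05 (Reg3b, Dom3z and Nop58 lower; Ppa1, Dcdc2a, Vsnl1 and the joined row of Irs2 higher). The count rests on single libraries: it was 0 without either day 14 library or without day 2 replicate 2, 1 without day 2 replicate 3, 197 without day 2 replicate 1 and 210 without day 2 replicate 4. DESeq2 called 370 genes.

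Among the 32 lower genes were genes of DNA replication and of protein folding. Cdc6, which loads the replicative helicase, was at 25.5, 16.4, 18.7 and 8.9 CPM at day 2, at 3.3 and 1.5 CPM at day 14 and at 0.7 to 3.8 CPM in the controls (day 14 against day 2, log2 fold change -2.82, SE 0.546, adjusted p = 0.049). Timeless, a replication fork protein, was at 10.6 to 18.8 CPM at day 2, at 3.4 and 4.5 CPM at day 14 and at 1.9 to 4.0 CPM in the controls (-1.89, SE 0.300, adjusted p = 0.036). Mcm6 was at 54.3 to 106 CPM at day 2 and at 32.3 and 31.2 CPM at day 14, still just above the highest control, 30.8 CPM (-1.40, SE 0.237, adjusted p = 0.047). Zfp367, a zinc finger gene, was at 50.2 to 81.0 CPM at day 2, 33.8 and 25.7 CPM at day 14 and 24 to 34 CPM in the controls. Hspa5 fell by 0.92 on the log2 scale (SE 0.160, adjusted p = 0.047), and the joined row Mir704+Pdia4, which holds a disulfide isomerase, fell by 0.93 (adjusted p = 0.031). Creld2, an ER stress target, was at 225 to 367 CPM at day 2, 149 and 118 CPM at day 14 and 87.3 to 141 CPM in the controls. Others were the tubulin genes Tuba1a, Tuba1b and Tuba1c, whose sequences are near-identical and whose reads may be shared, cytochrome c (Cycs) and the endothelin receptor gene Ednrb.

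Promoters are shown for a replication gene and an ER gene that came down, because each class has a well known element. For Mcm6 (GRCm38.p6, chr1:128359656-128359955, minus strand) capitals mark the E2F words TTTCCCGC or TTTGGCGC on either strand, of which 2 were found, beginning -110 and -47 bases from the start. Among all windows 1.56% held one. For Hspa5 (chr2:34771840-34772139, plus strand) capitals mark an ER stress response element, searched on both strands as CCAAT, 9 bases of any kind and CCACG. It begins -65 bases from the start, and 0.119% of all windows held a match.

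Mcm6: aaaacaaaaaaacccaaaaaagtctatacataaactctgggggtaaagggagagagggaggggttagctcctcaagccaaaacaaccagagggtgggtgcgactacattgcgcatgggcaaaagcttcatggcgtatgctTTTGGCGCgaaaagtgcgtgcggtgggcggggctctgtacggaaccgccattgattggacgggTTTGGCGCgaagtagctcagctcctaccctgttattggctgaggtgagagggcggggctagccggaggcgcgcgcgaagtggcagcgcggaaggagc

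Hspa5: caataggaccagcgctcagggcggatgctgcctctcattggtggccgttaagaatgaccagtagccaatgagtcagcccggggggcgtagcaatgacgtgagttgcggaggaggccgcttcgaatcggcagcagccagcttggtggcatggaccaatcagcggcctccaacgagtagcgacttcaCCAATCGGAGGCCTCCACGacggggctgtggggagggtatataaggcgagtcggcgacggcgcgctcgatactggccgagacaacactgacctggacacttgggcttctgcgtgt

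The window of Cdc6 held 1 E2F word, on the opposite strand, and that of Creld2 held 1 ER stress response element. The window of Timeless held no E2F word.

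Among the 11 genes that came up again, the joined row Gm15441+Txnip was at 141, 278, 166 and 287 CPM at day 2, at 551 and 722 CPM at day 14 and at 466 to 935 CPM in the controls (log2 fold change 1.55, SE 0.292, adjusted p = 0.047). Txnip encodes a glucose-responsive inhibitor of thioredoxin, and its reads could not be separated from those of the overlapping gene. Abtb1, an ankyrin repeat and BTB domain gene, was at 13.7 to 18.8 CPM at day 2, 29.5 and 39.1 CPM at day 14 and 32.8 to 39.3 CPM in the controls (1.02, SE 0.154, adjusted p = 0.031). Crebrf, a regulator of the unfolded protein response, went from 34.8 to 48.0 CPM at day 2 to 72.9 and 69.0 CPM at day 14, and the controls were at 68.2 to 101 CPM. Dcdc2a was at 17.2 to 21.0 CPM at day 2, at 33.5 and 40.1 CPM at day 14 and at 22.7 to 33.4 CPM in the controls, so both day 14 libraries lay above every control (log2 fold change 0.42, unadjusted p = 0.025). Tmem59l was at 21.3 to 29.6 CPM at day 2, 44.4 and 51.9 CPM at day 14 and 30.2 to 46.0 CPM in the controls. The joined row 9530052E02Rik+Irs2, which holds the insulin receptor substrate 2 gene, was at 22.9 to 29.9 CPM at day 2, 47.7 and 46.8 CPM at day 14 and 36.6 to 41.4 CPM in the controls. Vsnl1, a neuronal calcium sensor gene, was at 1.7 to 2.3 CPM at day 2, at 6.9 and 7.1 CPM at day 14 and at 2.8 to 5.3 CPM in the controls (day 14 against control, log2 fold change 0.91, SE 0.301, unadjusted p = 0.0092).

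**Figure D5:**
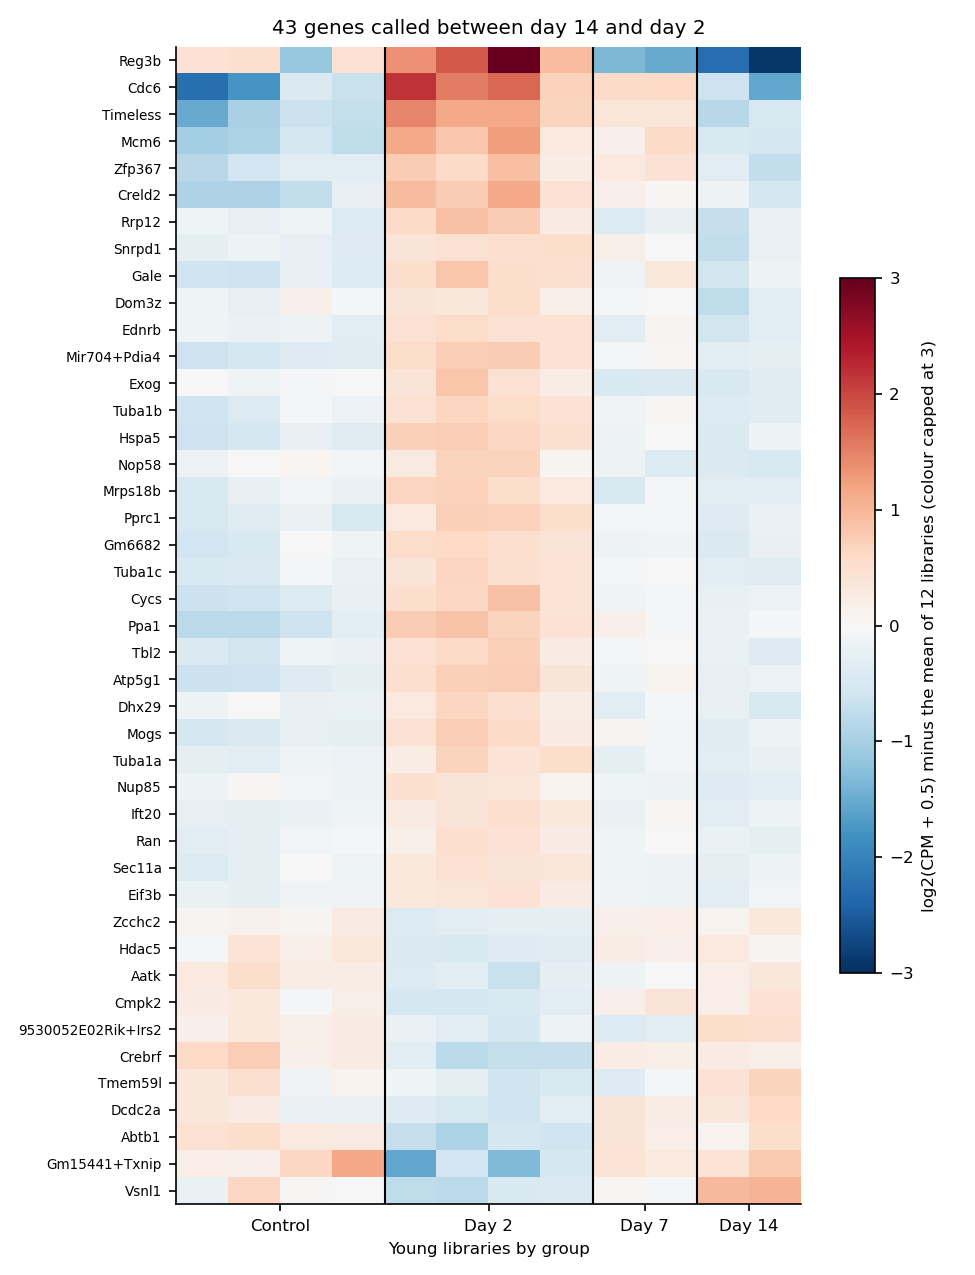
Level of the 43 genes called between day 14 and day 2 in the 12 young libraries, as log2(CPM + 0.5) minus the mean of the 12, ordered by the log2 fold change. The 4 day 2 columns stand apart, and the 2 day 14 columns lie nearer to the controls, which they overlap for 28 of the 43 genes. Reg3b at the top is lower than in the controls and Vsnl1 at the bottom is higher.

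Between day 14 and day 7, 2 of 14493 genes were called (0.0138%), and 441 had an unadjusted p below 0.05. Both were the inducible HSP70 genes Hspa1a and Hspa1b, near-identical neighbours on chromosome 17 whose reads may be shared. Hspa1a was at 19.5 and 19.6 CPM at day 7, at 58.9 and 70.0 CPM at day 14 and at 49.6, 31.4, 43 and 38.4 CPM in the controls. Both day 7 libraries thus lay below every control. In counts not scaled for library size, Hspa1a had 242, 292, 515 and 446 at day 2, 118 and 136 at day 7 and 394 and 422 at day 14. The rise from day 7 was 1.72 (SE 0.185, adjusted p = 0.0032) on the log2 scale, and that of Hspa1b 1.68 (SE 0.196, adjusted p = 0.0044). Both day 14 libraries lay above the highest control, with a log2 fold change of 0.67 for Hspa1a against control (SE 0.148, adjusted p = 0.23). Leaving out either day 7 library or day 14 replicate 2 ended both calls (adjusted p up to 0.17 for Hspa1a and 0.28 for Hspa1b). Of the other heat shock genes, Dnajb1, a partner of HSP70, was at 26.4 to 36.4 CPM in the controls and at 57.2 and 36.3 CPM at day 14, while Hspa8 and Hsph1 had log2 fold changes of -0.43 and -0.59 against control. The list of 12 tested heat shock genes had a median against control of -0.08 at day 14, after 0.08 at day 2 and -0.36 at day 7. At an unadjusted p below 0.05, 3 members were higher and 2 lower, beside 2.89% and 3.44% of all genes.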

How the data were processed

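Bulk RNA from islets was sequenced in 24 libraries, grouped by their titles. The authors deposited, per library, read counts per RefSeq gene that carry no normalization, and RPKM values, which the authors had divided by gene length and by reads in genes. Per the file headers the genome build was mm9 and the counter rpkmforgenes. The submitters' processing notes name bcl2fastq, CASAVA 1.8.2, Trimmomatic 0.36 and TopHat2 2.1.1, whereas the methods of the study name HISAT2 and HTSeq. Use of strand is not stated. Of 22197 rows, 1458 join several gene names, whose reads cannot be divided, and 441 carry a repeated name.

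The 12 young libraries were fitted together with edgeR 4.0.16 (R 4.3.3, TMM scaling, filterByExpr, quasi-likelihood test), and day 14 was compared with control, day 2 and day 7. The age difference was an interaction over 24 libraries. SE was taken as the log2 fold change over the root of F, and intervals are at 95%. A permutation of 2 against 4 libraries, with the one-sided p doubled, cannot give a p below 0.133, and no such test was run. The labels do not say which libraries came from separate mice, and p-values measure the spread between these samples. The fits were tested on simulated data first.

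The members, gene lists and rules were chosen with earlier results of these data known. Named were the called genes, the 8 largest rises and falls with unadjusted p below 0.01, a mean log2 CPM above 3 and no overlap, 30 fixed genes (29 tested) and the 5 largest called changes each way between days; other list members were picked after their values were seen, and some are not reported here. A list member on no row of its own, or below the filter, was not tested. Positions are from GENCODE for mm9 and promoters from RefSeq (GRCm38.p6).

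As alternatives, DESeq2 1.42.0, upper quartile and RLE scaling, 2 other filters, limma-trend (limma 3.58.1; RPKM with a pseudocount of 1), a replicate block, 2 covariates, the file code as a random block, other sets of libraries and leaving out each library were fitted. The fit to rows with 1 unrepeated name was chosen after seeing the data.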

Additional observations from a re-analysis of the deposited data

Results flagged for a closer look

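Among the 4 young controls, replicate 4 was far above the others in the share of reads in genes on the Amy2a5 row, at 7.48% with the next library at 3.65%. Replicate 1 was far above the others in the mean log2 level of the inflammation list, at 3.59 with the next library at 3.08. These are 2 of 35 sets of controls examined, and chance gives such a gap in about 1 set in 20. The day 14 change of Mdm1 differed between ages in the interaction test of edgeR, by -1.64 (SE 0.257, adjusted p = 0.039). On the scale of all 24 libraries, the young controls were at 246 to 283 CPM and the young day 14 libraries at 77.5 and 70.8 CPM. The old controls were at 70.4 to 131 CPM and the old day 14 libraries at 94.0 and 73.5 CPM.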

How the results depend on the processing

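At day 14 against control, where 9 genes were called, the count was 17 with genic read share as a covariate, 5 with the acinar list as a covariate, 48 in DESeq2 and 2 in limma-trend on log2(RPKM + 1), which moved the median of all genes by 0.20 and kept Mdm1 alone of the 9. RLE scaling, the unfiltered table, the minimum of 10 counts and the rows with 1 unrepeated name kept all 9. With the file code as a random block 6 genes were called, 5 of the 9 among them. Against controls of the first code alone 7 were called, 4 of the 9 among them. Against controls of the second code alone 6 were called, of which Fkbp5, Mdm1 and Tmtc3 belonged to the 9. The fit of all 24 libraries called 8, 6 of the 9 among them. Leaving out a library gave 1 to 6 calls, with 1 (Mdm1) without day 14 replicate 1, 2 without day 14 replicate 2, 4 without control replicate 1 or 2 and 5 without replicate 4. A lone day 14 library was assumed to vary like the other groups. Against day 2, where 43 were called, the count was 101 with upper quartile scaling, 86 without a filter, 133 with at least 10 counts in every library, 334 with genic read share as a covariate, 370 in DESeq2, 67 in limma-trend, 7 with the file code as a random block and 10 at a fold of at least 2; leaving out a library gave 0 to 210. The cause was not tested. Against day 7 (2 calls) limma-trend gave 0 (364 genes at an unadjusted p below 0.05), and leaving out a library gave 0 to 2. For the age difference (1 call) DESeq2 gave 5, limma-trend 0 (1136 at an unadjusted p below 0.05), the file code as a random block 0 (161), and leaving out a library 0 to 1.

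The replicate block gave 8 calls against control (6 of the 9 among them, Rab31, Ahcy and Usp51 lost), 16 against day 2, 2 against day 7 and 1 for the age difference; the deviations of same-numbered control and day 14 libraries correlated at 0.19 and -0.04, so the numbers were not read as a pairing. None of the 9 called genes turned its direction in these fits. Of 61 named genes, 22 had both signs among the alternatives, and 0 of these were called in any of them. Of the day 14 against control values of the named genes, 1111 kept their side of the threshold or stayed within the spread, 78 moved by more than the spread, 70 lost and 12 gained a call. The number of genes whose interval lay inside -1 to 1 ranged from 8754 to 9888 when a library was left out. Day 14 has 2 libraries, and the interval lay inside -1 to 1 for 10135 of 14493 genes.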
